A study of Poecilia reticulata with 6 samples.

Results

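The slc5 family holds carriers that use the inward sodium gradient to bring sugars, vitamins, monocarboxylates, iodide or choline into a cell. Its genes were taken from the guppy intestine data as every gene row whose symbol begins with slc5a in upper or lower case, except slc5a3, the myo-inositol carrier. The rule found 12 of the 10389 rows, and 4 of the 12 carry the name slc5a1 or SLC5A1 and are kept apart here by their Ensembl identifiers. The other 8 rows are slc5a2, slc5a5, slc5a6a, slc5a6b, slc5a7a, SLC5A7, slc5a8 and slc5a8l. Not all of them carry sugars, so the set is called the slc5a genes. No row carries the symbol slc5a9, slc5a10 or slc5a11, so these genes were not analysed here.

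RNA from the intestine of adult wild-type guppies (Poecilia reticulata) was sequenced in 6 libraries, 2 each from freshwater (0‰) and from salinities of 18‰ and 35‰. The salt in the tanks was raised by 3‰ every 2 days until 35‰ was reached within 24 days, so that a higher salinity was also reached later, and salinity and time of exposure cannot be told apart. The sex of the fish and the number of fish or tanks behind each library are not given in the sources used here, and the spread between 2 libraries may be partly technical. Expression is given in TPM, a share of all transcripts of the library that the authors scaled for transcript length and library size, and the rows summed to between 419412 and 481864 TPM per library. TPM keeps no read numbers, so the depth behind a value is unknown.

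In the intestine of vertebrates, the product of slc5a1, SGLT1, stands in the brush border of the absorptive cell and brings in glucose and galactose together with sodium. The Na/K-ATPase of the basolateral membrane maintains the gradient that drives it, and facilitated carriers of the slc2 family let the sugar out to the blood. The carrier thus moves sodium and water along with sugar, and a fish in salt water drinks and takes up ions and water through the same epithelium.

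The 3 slc5a1 rows with the most RNA were also the most abundant of the 12 slc5a genes in mean TPM. Of the 12 genes, 8 were tested, and none of these passed the test in any comparison of salinities. Few genes did at all, between 0.0127% and 0.317% of all genes tested, depending on the comparison. In all 3 abundant slc5a1 rows, the 18‰ libraries exceeded both freshwater libraries, by 2.05-fold, 2.23-fold and 3.75-fold in the mean. At 35‰, 2 of the 3 stood at about the 18‰ level, while the remaining row, ENSPREG00000010069, was below the 18‰ libraries in both replicates. Among the other genes, slc5a6b stayed close to one level, and slc5a2 and slc5a8 had most of their signal in 1 library.

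**Figure D1:**
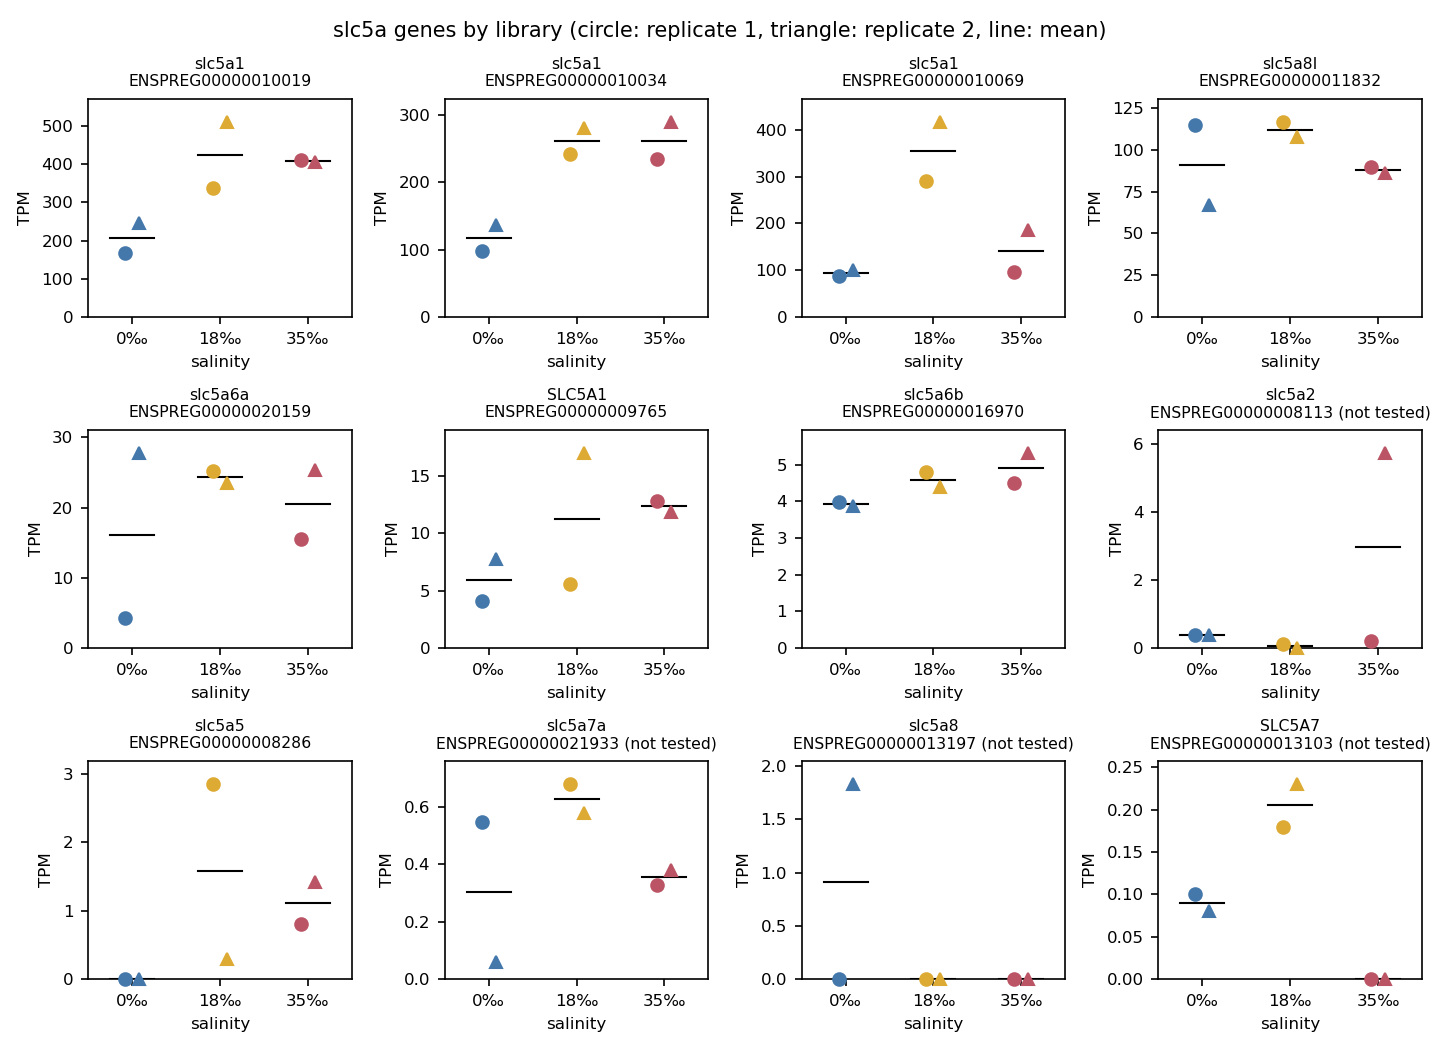
TPM of each slc5a gene (vertical axes, linear and starting at 0, each with its own range) by salinity in the 6 libraries, with a circle for replicate 1, a triangle for replicate 2 and a line for the mean of the 2. The 3 abundant slc5a1 rows lie higher at 18‰ than at 0‰ without overlap, and of the 3 only ENSPREG00000010069 is lower at 35‰ than at 18‰ without overlap.

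The most abundant slc5a gene was the slc5a1 row ENSPREG00000010019. Its TPM was 167 and 246 at 0‰, 338 and 510 at 18‰, and 410.2 and 407 at 35‰, where the first value is replicate 1 throughout. Both libraries of each salt treatment lay above both freshwater libraries, while the 18‰ libraries lay on either side of those at 35‰. The means were 206 ± 55.8 (SD, n = 2) at 0‰, 424 ± 122 at 18‰ and 409 ± 2.14 at 35‰. By level it ranked between 306 and 126 among the 10389 rows of a library, with the lowest rank in 0‰ replicate 1 and the highest in 18‰ replicate 2.

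The slc5a1 row ENSPREG00000010034 followed the same order of salinities at a lower level. Its TPM was 98.2 and 136 at 0‰, 242 and 281 at 18‰, then 234 and 289 at 35‰. The 18‰ and 35‰ libraries overlapped and all 4 lay above the 0‰ libraries. The means were 117 ± 26.7 (SD, n = 2), 261 ± 27.7 and 262 ± 38.9, so the 18‰ and 35‰ means differed by less than their spread.

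The slc5a1 row ENSPREG00000010069 had its highest values at 18‰. Its TPM was 87.2 and 101 at 0‰, 291 and 416 at 18‰, and 95.7 and 186 at 35‰. Both 18‰ libraries lay above the other 4, and the lower of the 35‰ libraries lay between the freshwater libraries. The means were 94.3 ± 10.1 (SD, n = 2), 354 ± 87.9 and 141 ± 64.1, and the difference between 35‰ and 0‰ was smaller than the spread at 35‰.

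The fourth row, SLC5A1 (ENSPREG00000009765), was far less abundant than the other 3. Its TPM was 4.07 and 7.77 at 0‰, 5.56 and 17.0 at 18‰, and 12.9 and 11.9 at 35‰. Both 35‰ libraries lay above both freshwater libraries, and the 18‰ libraries lay on either side of those at 35‰. The sequences of the slc5a1 rows were not compared. How reads that match several rows were divided is not given in the sources used here, so the split between the slc5a1 rows is less certain than their sum.

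Differences between salinities were tested with limma on the log2(TPM + 1) scale across the 7897 genes that reached a TPM of 1 in 2 or more libraries. Calls needed a fold change above 1.5 and a p-value under 0.05 after Benjamini-Hochberg adjustment. Of the 12 slc5a genes, 8 passed this filter. The slc5a5 gene passed only through salt libraries and so had to differ from freshwater, and slc5a2, slc5a7a, SLC5A7 and slc5a8 were not tested. In limma 0 of the 8 were called in 18‰ versus 0‰, where 0.0127% of all genes tested were called, and 0 in 35‰ versus 0‰ (0.19% of all genes) and in 35‰ versus 18‰ (0.317%, of which 0.038% higher and 0.279% lower). When 18‰ was set against the mean of 0‰ and 35‰, again 0 were called (0.0127%). Without adjustment, 3, 2, 1 and 2 of the 8 had a p-value under 0.05 in these 4 comparisons, against 5.93%, 11.3%, 12.5% and 8.62% of all genes tested. The share of all genes that was higher at such a p-value was 3.94%, 5.01%, 3.7% and 6.34%, and all but the single slc5a gene of 35‰ versus 18‰ were higher. With 2 libraries per salinity, a p-value that misses the threshold does not show that a gene did not differ. These comparisons share libraries, so their counts are not separate pieces of evidence.

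The difference between 18‰ and 0‰ was largest for ENSPREG00000010069, at 1.88 on the log2 scale (standard error 0.36, 95% confidence interval 1.04 to 2.72, adjusted p = 0.413 from limma). For ENSPREG00000010034 it was 1.16 (standard error 0.25, interval 0.56 to 1.77, adjusted p = 0.468 from limma), and for ENSPREG00000010019 it was 1.03 (standard error 0.29, interval 0.34 to 1.73, adjusted p = 0.614 from limma). The intervals are not adjusted for the number of genes. The median over all genes tested was 0.06, so that the log2 fold changes of these 3 slc5a1 rows lay well above it, although none passed the adjusted test. For SLC5A1 (ENSPREG00000009765) the log2 fold change was 0.70, and it became −0.02 without 18‰ replicate 2, so its direction rested on that library.

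In 35‰ versus 0‰ the log2 fold change was 1.16 for ENSPREG00000010034 (standard error 0.25, interval 0.56 to 1.76, adjusted p = 0.185 from limma) and 1.01 for ENSPREG00000010019 (standard error 0.29, interval 0.31 to 1.70, adjusted p = 0.288 from limma). It was 1.0 for SLC5A1 (interval −0.16 to 2.16) and 0.50 for ENSPREG00000010069, whose interval of −0.34 to 1.34 includes 0. Without 35‰ replicate 2 the latter value was 0.03, and without 35‰ replicate 1 it was 0.98. Markers of the exocrine pancreas (4 of 15 symbols in the table) differed between the same libraries, with a summed TPM of 8070 and 3411 at 0‰, 3735 and 1506 at 18‰, but 4.45 and 63.6 at 35‰. The part of pancreatic RNA in the slc5a1 differences was not tested.

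Between 35‰ and 18‰ the log2 fold change was −1.37 for ENSPREG00000010069 (standard error 0.36, interval −2.22 to −0.53, adjusted p = 0.229 from limma). For ENSPREG00000010034 it was 0.00 (interval −0.60 to 0.60) and for ENSPREG00000010019 it was −0.02 (interval −0.72 to 0.67), and the sign of both turned under median-ratio scaling. When 18‰ was set against the mean of the other salinities, ENSPREG00000010069 gave a log2 fold change of 1.63 (standard error 0.31, interval 0.90 to 2.35, adjusted p = 0.252 from limma).

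**Figure D2:**
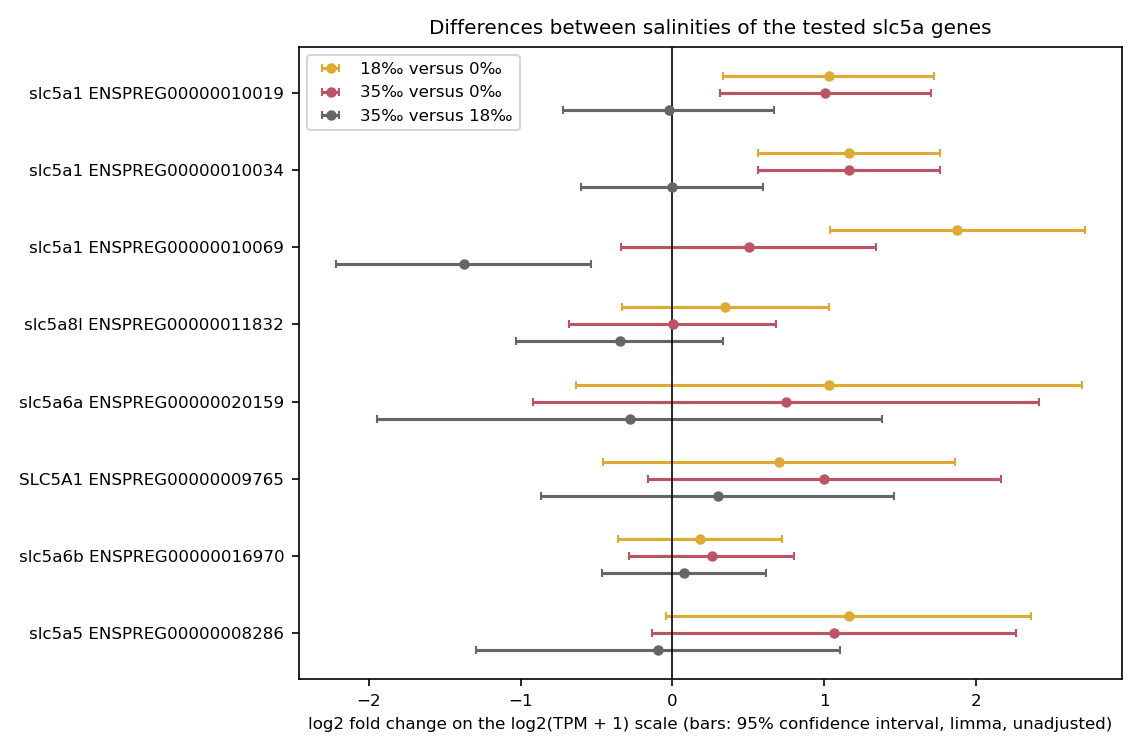
Log2 fold change on the log2(TPM + 1) scale (horizontal axis) of the 8 tested slc5a genes in 18‰ versus 0‰, 35‰ versus 0‰ and 35‰ versus 18‰, with bars for limma's 95% confidence interval, not adjusted for the number of genes. The bars of the 3 abundant slc5a1 rows lie above 0 in 18‰ versus 0‰, and in 35‰ versus 18‰ the bar of ENSPREG00000010069 alone lies below 0, but no gene was called after adjustment.

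The 4 slc5a1 rows together reached a summed TPM of 356 and 491 at 0‰, 877 and 1223 at 18‰, and 753 and 895 at 35‰. All salt libraries lay above both freshwater libraries, and the 18‰ replicate 1 sum lay between those at 35‰. The means were 424 ± 95.2 (SD, n = 2) at 0‰, 1050.1 ± 245 at 18‰ and 824 ± 100.2 at 35‰, so the mean at 18‰ was 2.48 times and at 35‰ 1.94 times that at 0‰. The slc5a1 rows made up 74.2% and 83.0% of the summed slc5a TPM at 0‰, 85.4% and 90.0% at 18‰, and 87.1% and 87.8% at 35‰.

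Within this sum, the order of the rows differed between salinities. The share of ENSPREG00000010069 was 24.5% and 20.7% at 0‰, 33.2% and 34.0% at 18‰, and 12.7% and 20.8% at 35‰. At 18‰ it was second to ENSPREG00000010019 in both libraries, and in the other 4 libraries it was behind both other abundant rows. The share of ENSPREG00000010019 was 46.8% and 50.1% at 0‰, 38.6% and 41.7% at 18‰, and 54.5% and 45.5% at 35‰, and it was the highest in 6 of 6 libraries. The share of ENSPREG00000010034 ranged from 22.9% in 18‰ replicate 2 to 32.3% in 35‰ replicate 2, and that of SLC5A1 (ENSPREG00000009765) from 0.634% in 18‰ replicate 1 to 1.71% in 35‰ replicate 1.

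**Figure D3:**
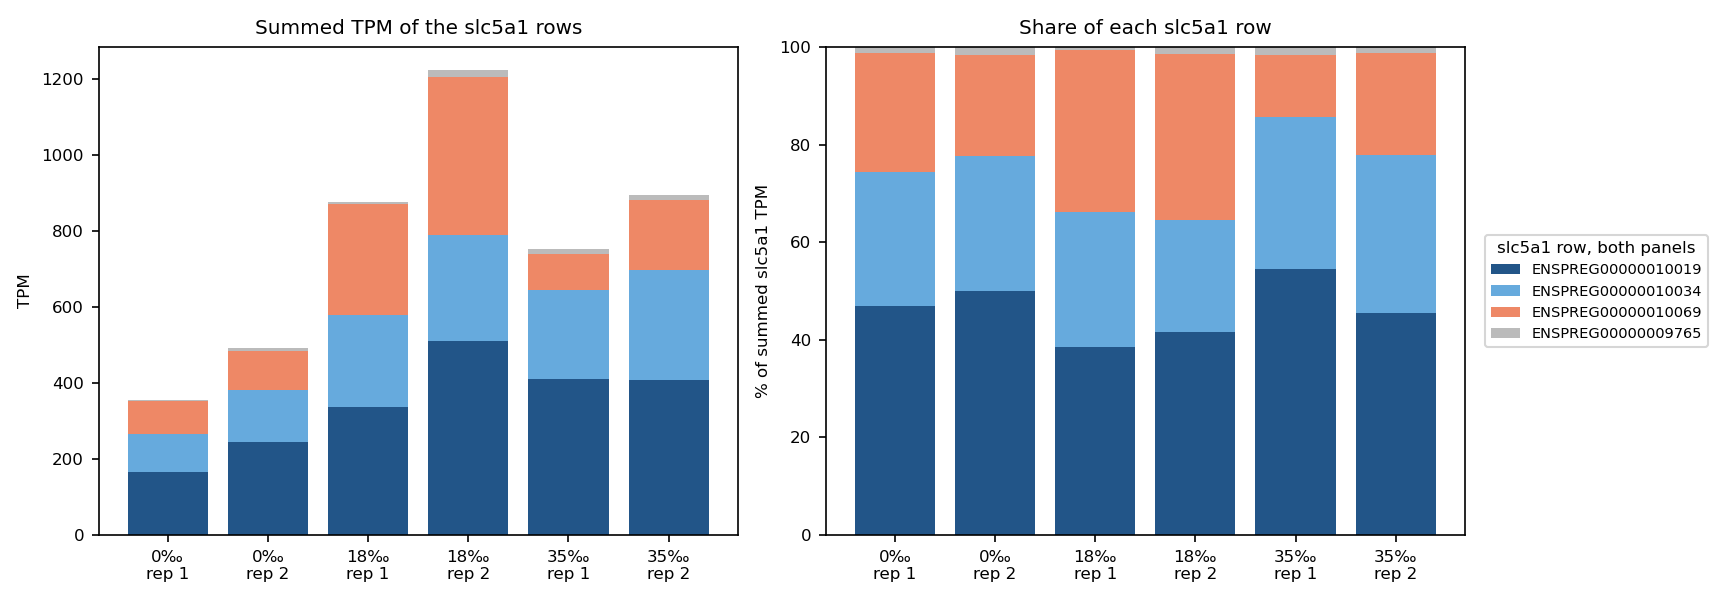
Stacked bars of the 4 slc5a1 rows in each library, as TPM on the left and as a percentage of the summed slc5a1 TPM on the right, with 1 colour per row. The sum is lowest in the 0‰ libraries, and the segment of ENSPREG00000010069 takes 33.2% and 34.0% at 18‰ against at most 24.5% in the other 4 libraries.

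The slc5a1 rows were also compared by their ratio within a library. Like the shares, these ratios carry the uncertainty of how reads that match several rows were divided. The TPM ratio of ENSPREG00000010019 to ENSPREG00000010034, which have the highest mean TPM, ranged from 1.40 in 18‰ replicate 1 to 1.82 in 18‰ replicate 2. As a log2 ratio of TPM + 1 it was 0.76 and 0.85 at 0‰, 0.48 and 0.86 at 18‰, then 0.81 and 0.49 at 35‰. These values overlapped between salinities, with a mean difference of −0.13 for 18‰ against 0‰ and of −0.15 for 35‰ against 0‰. This was the planned pair, and its lowest p-value from an exact two-sided permutation test was 0.667, in 35‰ versus 0‰.

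The ratio of ENSPREG00000010069 to ENSPREG00000010034 was −0.17 and −0.42 at 0‰, 0.27 and 0.56 at 18‰, and −1.28 and −0.63 at 35‰ on the same log2 scale. The 3 salinities did not overlap, with 18‰ highest and 35‰ lowest, and only in the 18‰ libraries was ENSPREG00000010069 the more abundant of the 2. At 18‰ the mean log2 ratio exceeded that of the other 4 libraries by 1.04, and an exact two-sided permutation test of 2 against 4 libraries gave p = 0.133, the smallest it allows. The ratio of ENSPREG00000010069 to ENSPREG00000010019 was −0.93 and −1.27 at 0‰, −0.21 and −0.29 at 18‰, and −2.09 and −1.12 at 35‰. Here too the 18‰ libraries lay above the other 4, by 1.1 in the mean (exact two-sided permutation p = 0.133). These 2 pairs were added after the values had been seen, and over the 12 ratio tests the smallest Benjamini-Hochberg adjusted value of the exact tests was 0.571. An exact test between 2 salinities cannot give a p-value below 0.333 with 2 libraries each.

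**Figure D4:**
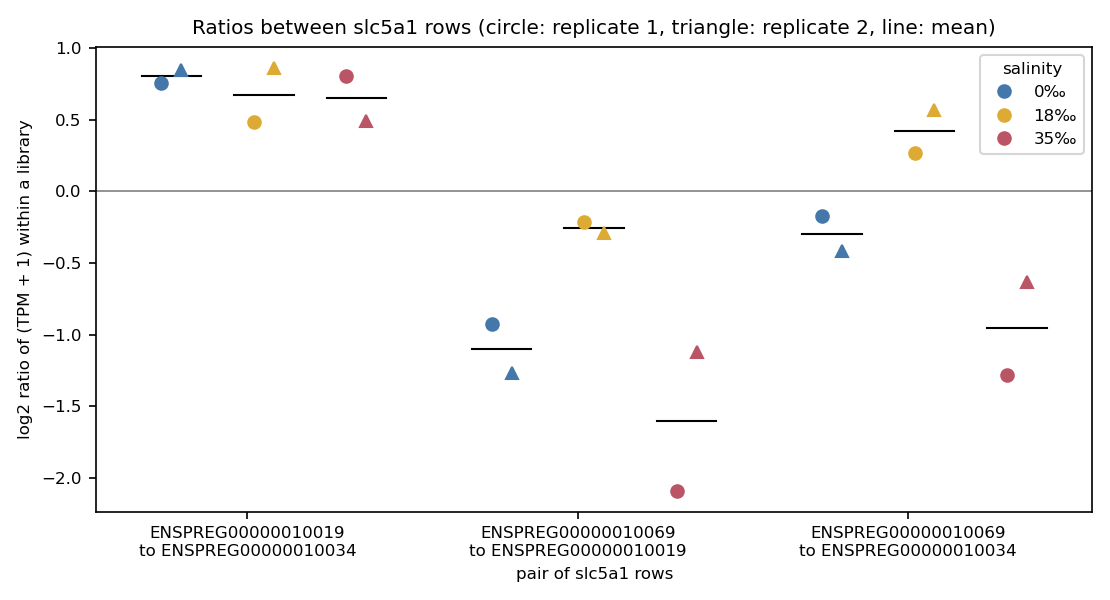
Log2 ratio of TPM + 1 (vertical axis) between pairs of slc5a1 rows within each library, with a circle for replicate 1, a triangle for replicate 2, a line for the mean and colour for salinity. The ratio of ENSPREG00000010019 to ENSPREG00000010034 overlaps between salinities, whereas both ratios of ENSPREG00000010069 are highest in the 18‰ libraries.

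The absorptive cells themselves were followed through markers of the enterocyte, of which 9 of the 20 symbols listed were rows of the table. Their summed TPM was 4705 and 6513 at 0‰, 8464 and 10843 at 18‰, and 6369 and 7422 at 35‰, led by anpepb, a brush-border peptidase, fabp1b.1, a fatty acid-binding protein, and cdh17, an intestinal cadherin. The sum was lowest in 0‰ replicate 1 and highest in 18‰ replicate 2, as was the summed slc5a1 TPM. The markers did not all follow the sum. Of the 9 rows, anpepb, slc15a1b, pck1, epcam and alpi.2 were highest in both 18‰ libraries, whereas cdh17 was highest at 35‰, at 1332 and 2236 TPM against 1160 and 1201 at 18‰. The fabp1b.1 gene overlapped between salinities, with its highest TPM of 2586 in 35‰ replicate 1. Opposite to the sum, dgat2 was lowest in both 18‰ libraries, with TPM values of 3.36 and 2.76, while the remaining libraries ranged from 3.82 to 24.3. The alpi.1 row never exceeded a TPM of 0.06. The pck1 gene, an enzyme of glucose synthesis, reached 2461 TPM in 18‰ replicate 2. In bulk tissue, more cells of a type and more RNA per cell cannot be told apart.

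Taken relative to this sum of markers that differ among themselves, an alternative chosen after the values were seen, the log2 difference between 18‰ and 0‰ was 1.1 for ENSPREG00000010069, 0.38 for ENSPREG00000010034 and 0.24 for ENSPREG00000010019. Both libraries at 18‰ remained above both at 0‰ for all 3 of these rows. In 35‰ versus 18‰ the difference was −0.90 for ENSPREG00000010069, with no overlap, and became 0.48 for ENSPREG00000010034 and 0.46 for ENSPREG00000010019, both higher at 35‰ with no overlap.

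Markers of distal enterocytes, which take up proteins or bile acids, had their lowest sum at 35‰. Of 10 symbols listed, 5 were in the table, led by the cathepsin gene ctsl.1, and their summed TPM was 3045 and 2035 at 0‰, 2874 and 2986 at 18‰, then 89.9 and 960 at 35‰. The 5 rows differed in their order of salinities. The slc10a2 gene, the ileal bile acid carrier, had a TPM of 226 and 176 at 0‰, 706 and 613 at 18‰ and was listed at 0 and 429 at 35‰. With tmigd1, at 319 and 212, 700 and 679, and 0 and 415, it was highest in both 18‰ libraries, as was ENSPREG00000010069. The ctsl.1 gene was instead lower at 18‰ (698 and 714) than at 0‰ (1284 and 828), and at 35‰ it was at 3.33 and 4.02. The remaining rows, lgmn and tcn2, overlapped between 0‰ and 18‰ and were lowest in both 35‰ libraries. The TPM of lgmn was 1069 and 690 at 0‰, 648 and 785 at 18‰, and 66.7 and 82.7 at 35‰. That of tcn2 was 147 and 129, 122 and 194, and 19.9 and 29.0. Of the 35‰ libraries, replicate 1 was also the lower in ENSPREG00000010069, whereas ENSPREG00000010019 was almost equal in the 2. Replicate 1 was the lower in ENSPREG00000010034 as well, at 234 against 289, and in the enterocyte sum, at 6369 against 7422. The part of the distal markers in the level of ENSPREG00000010069 was not tested.

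**Figure D5:**
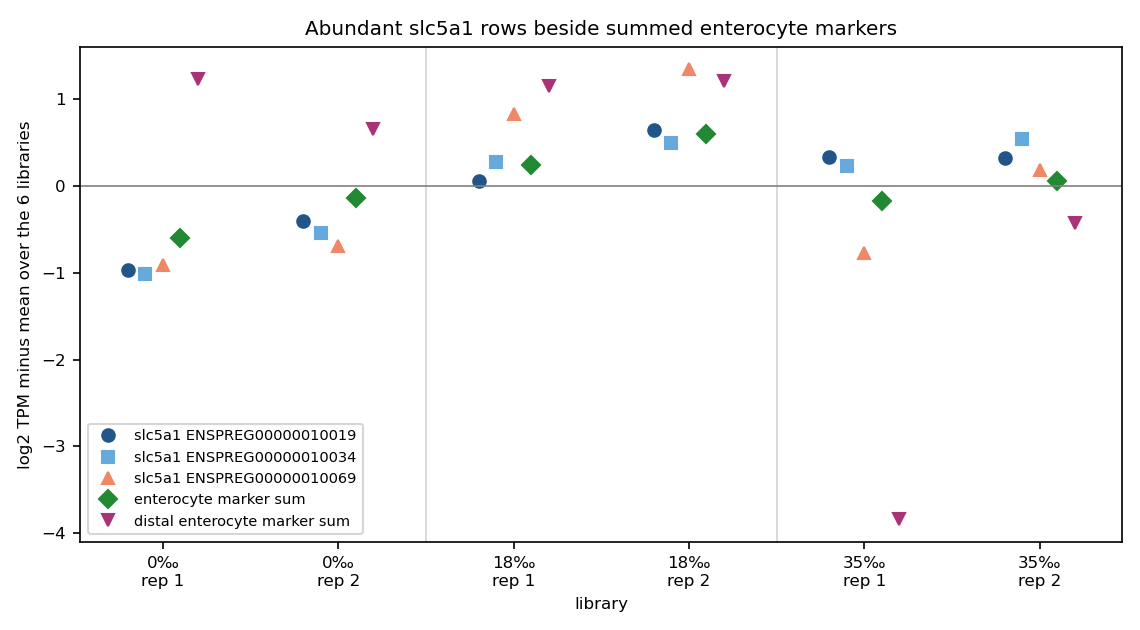
Log2 TPM minus its mean over the 6 libraries (vertical axis) of the 3 abundant slc5a1 rows and of the summed TPM of the enterocyte and distal enterocyte markers, by library. The enterocyte sum is lowest in 0‰ replicate 1 and highest in 18‰ replicate 2. The distal sum is lowest in 35‰ replicate 1, where ENSPREG00000010069 and the enterocyte sum also lie below their means. In both 0‰ libraries the distal sum lies above its mean, while ENSPREG00000010069 lies below its own.

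The genes whose log2(TPM + 1) profile over the 6 libraries was most like each abundant slc5a1 row were found by Pearson's r among the genes tested. With 6 libraries and 7897 genes, high values are common, and they are given as a description only. For ENSPREG00000010019 they were tnikb, a kinase gene, with an r of 0.997, fam214b with 0.987, a row named Metazoa with 0.986, ahi1 with 0.985 and zgc:172121 with 0.979. The zgc:172121 gene, whose TPM was 28.1 and 70.8 at 0‰ and between 174 and 242 in the salt libraries, was also among those for ENSPREG00000010034, with 0.985, beside lfng, a modifier of Notch, rbm18 and vps36, with 0.991, 0.987 and 0.986. For ENSPREG00000010069 they were zfand2a, jkamp, plin2, NR4A1 and lipia, with 0.993, 0.993, 0.989, 0.985 and 0.979. The plin2 gene, which encodes a coat protein of lipid droplets, had a TPM of 322 and 413 at 0‰, 1023 and 1427 at 18‰, 455 and 683 at 35‰, which is the order of salinities seen in ENSPREG00000010069. The NR4A1 gene, a nuclear receptor, was at 0.88 and 1.03 at 0‰, 10.8 and 13 at 18‰ and 1.13 and 3.05 at 35‰.

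Among the slc5a genes, ENSPREG00000010019 and ENSPREG00000010034 were the slc5a1 rows most alike by Pearson's r over the 6 libraries, at 0.96. ENSPREG00000010069 had an r of 0.68 with the former and 0.71 with the latter. SLC5A1 (ENSPREG00000009765) had an r of 0.88 with ENSPREG00000010019, 0.75 with ENSPREG00000010034 and 0.41 with ENSPREG00000010069. By Spearman's rank correlation, ENSPREG00000010019 and SLC5A1 were instead the slc5a1 rows most alike, at 0.94. That of ENSPREG00000010019 and ENSPREG00000010034 was 0.71. For ENSPREG00000010069 it was 0.77 with ENSPREG00000010034, 0.6 with ENSPREG00000010019 and 0.49 with SLC5A1. By rank, ENSPREG00000010034 was thus slightly more like ENSPREG00000010069 than ENSPREG00000010019, the reverse of Pearson's r. All these values share the same libraries and scaling.

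The slc5a8l gene was the fourth most abundant of the slc5a genes. Its relative SLC5A8 is known in mammals as a sodium-coupled carrier of lactate and short-chain fatty acids. The TPM of slc5a8l was 115 and 66.8 at 0‰, 117 and 107 at 18‰, then 89.8 and 86.0 at 35‰. The freshwater libraries spanned all but 1 of the salt libraries, and the 35‰ values lay below those at 18‰ without overlap. On the log2 scale it differed by 0.35 in 18‰ versus 0‰ (interval −0.33 to 1.03), 0.00 in 35‰ versus 0‰ (interval −0.68 to 0.69) and −0.35 in 35‰ versus 18‰ (interval −1.03 to 0.34). Without 0‰ replicate 2 the first of these was −0.04, so its direction rested on that library.

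The slc5a6 genes encode relatives of the sodium-dependent multivitamin transporter, which carries biotin and pantothenate. The TPM of slc5a6a was 4.35 and 27.8 at 0‰, 25.3 and 23.5 at 18‰, and 15.5 and 25.4 at 35‰. A single library, 0‰ replicate 1, was low, and the other freshwater library held the highest of the 6 values. Its log2 difference between 18‰ and 0‰ was 1.03 (standard error 0.70, interval −0.63 to 2.70) and turned to −0.18 when 0‰ replicate 1 was left out, and in 35‰ versus 0‰ it went from 0.75 to −0.46. The same library had the highest summed TPM of leukocyte markers (5 of 12 symbols in the table), at 682 against 200.2 to 289 elsewhere, and also the highest sum of exocrine pancreas markers, at 8070. The other freshwater library had the highest summed TPM of liver markers (4 of 14 symbols in the table), at 405 against 2.58 to 21.8 elsewhere. The part of these markers in the values of slc5a6a was not tested.

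The slc5a6b gene was among the steadiest of the slc5a genes, with a TPM of 3.98 and 3.87 at 0‰, 4.81 and 4.38 at 18‰, and 4.50 and 5.31 at 35‰. Both salt treatments lay above freshwater without overlap, by 0.18 and 0.26 on the log2 scale, with intervals of −0.36 to 0.72 and −0.28 to 0.80. Its highest value was 1.37 times its lowest, against 3.06 times for ENSPREG00000010019 and 6.38 times for slc5a6a.

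The slc5a5 gene, whose product takes up iodide in the thyroid and is also found in the gut of mammals, was listed at 0 in both freshwater libraries. Its TPM was 2.85 and 0.30 at 18‰ and 0.81 and 1.42 at 35‰. All 4 salt libraries lay above freshwater, and 18‰ replicate 1 was the highest and 18‰ replicate 2 the lowest of the 4. A listed 0 may be a gene without RNA or one that was not quantified, so no fold against freshwater is given for the TPM. Of 7 thyroid symbols listed, 2 were in the table, pax8 and tshr, and their summed TPM was at most 0.32 in any library.

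The slc5a2 gene encodes a relative of SGLT2, the sugar carrier of the mammalian kidney. Its TPM was 0.38 in each freshwater library, 0.12 at 18‰ replicate 1, 0 at 18‰ replicate 2, 0.22 at 35‰ replicate 1 and 5.73 at 35‰ replicate 2. A single library thus held nearly all of its signal, and the mean of 2.98 ± 3.90 (SD, n = 2) at 35‰ describes neither library. Of 16 kidney symbols listed, 5 were in the table, and pax2a, pax8 and cdh16 had their highest TPM in the same library, at 0.99, 0.32 and 0.55. Elsewhere pax2a and cdh16 were listed at 0 and pax8 at 0.01 or less. The wt1b gene went another way, with its highest TPM of 1.93 in 18‰ replicate 1 against 1.06 in 35‰ replicate 2. The 5 rows were led by hnf1ba, which the intestine also expresses. Their summed TPM was 43.7 in 35‰ replicate 2 and between 24.2 and 36.5 in the others. The part of kidney RNA in the slc5a2 value was not tested.

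The slc5a8 gene was listed at 0 in 5 libraries and had a TPM of 1.83 in 0‰ replicate 2. That library also had a summed TPM of liver markers (4 of 14 symbols in the table) of 405, against 2.58 to 21.8 in the others, and whether the 2 are related was not tested.

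The choline carriers, which supply cholinergic neurons with the precursor of acetylcholine, were below a TPM of 1 in every library. The TPM of slc5a7a was 0.55 and 0.06 at 0‰, 0.68 and 0.58 at 18‰, and 0.33 and 0.38 at 35‰. That of SLC5A7 was 0.10 and 0.08 at 0‰ and 0.18 and 0.23 at 18‰, and the gene was listed at 0 in both 35‰ libraries. At this level 18‰ was highest in both genes, without overlap. The neuronal markers in the table (9 of 15 symbols) summed to between 8.53 and 16.4 TPM in each library, with gap43 leading, and chata, the enzyme that makes acetylcholine, was at most at 0.12.

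Counted over all 12 slc5a genes, 7 were higher at 18‰ than at 0‰ without overlap of the libraries and 1, slc5a2, was lower, against 21.7% and 12.3% of the 10389 rows. At 35‰, 5 were higher than at 0‰ and SLC5A7 alone was lower, where 17.2% and 17.9% of all rows did so. In 35‰ versus 18‰, 1 was higher and 4 were lower, against 17% and 25.4%. In both 18‰ libraries, 3 were higher than in all 4 others, ENSPREG00000010069, slc5a7a and SLC5A7, against 10.3% of all rows, and slc5a2 was lower, against 4.68%. The 12 genes are not independent, since the slc5a1 rows vary together, and 2 of the 7 higher at 18‰ were below a TPM of 1. These 2, slc5a7a and SLC5A7, were also among the 4 lower in 35‰ versus 18‰. The only gene higher in that comparison, slc5a2, had a TPM of 0.12 and 0 at 18‰. The slc5a5 gene, counted in the 7 and in the 5, was listed at 0 in both freshwater libraries and at 0.30 in 18‰ replicate 2.

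The genes that work beside SGLT1 in sugar uptake were followed through lists of symbols, and no gene of these lists was called in limma in any of the 4 comparisons. Of all genes tested, 0.0127% were called in 18‰ versus 0‰, 0.19% in 35‰ versus 0‰ and 0.317% in 35‰ versus 18‰. In 18‰ against the mean of 0‰ and 35‰ it was 0.0127%. So few calls over all genes make none in a short list unremarkable. Of 12 facilitated sugar carriers, 8 were tested. The median of their log2 fold changes stood at 0.06 in 18‰ versus 0‰ and at −0.24 in 35‰ versus 0‰, where the medians over all genes tested were 0.06 and −0.01. The fructose carrier gene slc2a5 had a TPM of 7.33 and 29.0 at 0‰, 50.5 and 80.3 at 18‰, 51.2 and 43.0 at 35‰, and all salt libraries lay above freshwater (log2 fold change 2.03 in 18‰ versus 0‰, adjusted p = 0.613 from limma). SLC2A9, a urate carrier in mammals, went the other way, with 62.9 and 39.9 at 0‰, 27.9 and 49.9 at 18‰, and 10.7 and 19.4 at 35‰ (log2 fold change −1.73 in 35‰ versus 0‰, adjusted p = 0.210 from limma). The slc2a2 gene, the basolateral glucose carrier, was at 4.95 and 16.2 at 0‰, 17.5 and 17.3 at 18‰, and 21.7 and 25.3 at 35‰, and was named here after its values were seen.

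Of the luminal sugar-digesting enzymes, LCT, named for lactase, had a TPM of 16.8 and 26.6 at 0‰, 62.9 and 67.4 at 18‰, then 27.1 and 31.8 at 35‰. The 18‰ libraries were the highest, as for ENSPREG00000010069, and the log2 fold change in 18‰ versus 0‰ was 1.57 (adjusted p = 0.376 from limma). The trehalase gene treh overlapped between 0‰ and both salt treatments, at 71.1 and 233 at 0‰, 90.2 and 130 at 18‰, and 194 and 243 at 35‰.

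Of 6 regulators tested, SGK1, a kinase that activates sodium transporters, had 57.5 and 67.2 TPM at 0‰, 95.3 and 198 at 18‰, and 104 and 109 at 35‰, and all salt libraries lay above freshwater. The sodium-proton exchanger slc9a3.2 was at 3.75 and 2.04 at 0‰, 1.22 and 0.78 at 18‰, and 0.48 and 9.16 at 35‰, with the high value again in 35‰ replicate 2. Of 5 sodium pump genes tested, 0 were called in either salt treatment versus 0‰. Of all genes tested, 0.0127% were called in 18‰ versus 0‰ and 0.19% in 35‰ versus 0‰. The median log2 fold change of the pump genes was 0.50 in 18‰ versus 0‰ and 0.78 in 35‰ versus 0‰. The medians over all genes tested were 0.06 and −0.01.

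Of 6 genes tested for the first steps of sugar metabolism, gck, the glucokinase gene, was at 27.1 and 102 at 0‰, 42.0 and 61.1 at 18‰, then 18.0 and 5.86 at 35‰. The glucose-6-phosphatase gene g6pca.2 was at 40.7 and 149 at 0‰, 142 and 312 at 18‰, then 351 and 158 at 35‰. The freshwater and 35‰ libraries of gck and of g6pca.2 did not overlap, although replicates of one salinity lay far apart in both genes. The higher freshwater value of both genes came from replicate 2. That library had a summed TPM of liver markers of 405, against 2.58 to 21.8 in the others. The part of liver RNA in these values was not tested. Of 10 tested carriers of other slc5 substrates, SLC16A7, a monocarboxylate carrier, was lower in both 35‰ libraries (5.76 and 12.2 TPM) than in both freshwater libraries (26.9 and 13.7). The thiamine carrier gene slc19a3b was at 14.9 and 18.3 at 0‰, 11.7 and 4.81 at 18‰, and 34.1 and 15.5 at 35‰, and was lower in both 18‰ libraries than in the other 4.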

How the data were processed

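STAR alignment to a guppy genome and StringTie quantification were done by the authors, who deposited 1 table of TPM values with a column per library, scaled by them for transcript length and library size. The genome build, the annotation and the tool versions are not given in the sources used here, so no positions are printed. Groups came from the sample titles, whose treatment labels write the salinities as percent salt.

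TPM was used as deposited, with limma 3.58.1 (R 4.3.3) and, for descriptions, Python 3.11.15, numpy 2.4.6, pandas 2.3.3, scipy 1.17.1 and matplotlib 3.10.9. The authors' test, DESeq2, needs counts and was replaced by limma with a mean-variance trend on log2(TPM + 1), in 1 fit of all 6 libraries. Fold changes on this scale understate those of low genes. Values of 0, of which there were between 1006 and 1275 per library, were used as 0. The fit was tested on simulated data.

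The slc5a genes, the gene lists and the markers were chosen with earlier results of these data known. Every slc5a gene is named. From each list of sugar handling the 2 tested genes with the largest absolute log2 fold change against 0‰ are named, and for each of the 3 most abundant slc5a genes the 5 with the highest Pearson's r. Some genes that these rules name are not reported here. RefSeq lists 6 of the 12 symbols and was used for names only. Other settings tried were a smaller pseudocount, a stricter and no filter, no trend, scaling by median ratios, only the salinities compared, a replicate block, each library left out and ratios to enterocyte markers.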

Additional observations from a re-analysis of the deposited data

How the results depend on the processing

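Of the 400 log2 fold changes of the tested slc5a genes under the alternatives to the limma fit, 379 kept their sign and none was called, with adjusted p-values from 0.0753 upwards. With 2 libraries per salinity, the absence of calls says nothing about stability. A log2 fold change stays the same with the stricter or no filter, no trend, a replicate block or only the salinities compared. It also stays the same without a library of a salinity outside the comparison. In these settings no sign could turn, nor could that of slc5a5 against 0‰, since both freshwater values are 0. The 379 therefore overstates how stable the directions were. The counts over all genes moved as well. In 18‰ versus 0‰, where 1 gene was called, 0 were called with a mean TPM of at least 5, with median-ratio scaling, with a replicate block and with only the salinities compared, and between 0 and 19 without 1 library (19 without 0‰ replicate 1, 2 without 18‰ replicate 1, 0 without 18‰ replicate 2 or either 35‰ library). In 35‰ versus 0‰, against 15 called, there were 24 with a mean TPM of at least 5, 1 with no filter and between 3 and 85 without 1 library (35 and 85 without 0‰ replicate 1 or 2, 3 and 24 without 35‰ replicate 1 or 2). In 35‰ versus 18‰, against 25, there were 4 with no filter, 41 with only the salinities compared and between 2 and 41 without 1 library (41 without either 0‰ library, 5 and 7 without 18‰ replicate 1 or 2, 2 without 35‰ replicate 1). For 18‰ against the mean of 0‰ and 35‰, against 1, there were 2 with a pseudocount of 0.1 or no trend, 0 with the replicate block and between 0 and 26 without 1 library (26 and 2 without 0‰ replicate 1 or 2, 8 without 35‰ replicate 2, 0 without 18‰ replicate 2 or 35‰ replicate 1). The cause of these shifts was not tested. Over all genes tested, the same-numbered replicates did not deviate together (r from −0.04 to 0.06 between pairs of salinities). A value over all genes cannot show whether the samples were paired, and pairing is not given in the sources used here.

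The signs that turned were these. Under median-ratio scaling, ENSPREG00000010034 and ENSPREG00000010019 went to 0.083 and 0.062 in 35‰ versus 18‰, and slc5a6b to −0.015 in 18‰ against the mean of the others. With a pseudocount of 0.1, slc5a5 went to 0.11 in 35‰ versus 18‰. Relative to the enterocyte markers, chosen after the values were seen, ENSPREG00000010019 and ENSPREG00000010034 went to 0.46 and 0.48 in 35‰ versus 18‰ and to −0.11 and −0.048 in 18‰ against the mean of the others.

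The ranges without 1 library that crossed 0 were as follows. In 18‰ versus 0‰, −0.18 to 2.24 for slc5a6a, −0.037 to 0.74 for slc5a8l, −0.024 to 1.43 for SLC5A1 and −0.32 to 0.055 for the log2 ratio of ENSPREG00000010019 to ENSPREG00000010034. In 35‰ versus 0‰, −0.46 to 1.96 for slc5a6a, −0.38 to 0.39 for slc5a8l and −0.31 to 0.0026 for the log2 ratio of ENSPREG00000010019 to ENSPREG00000010034. In 35‰ versus 18‰, −0.62 to 0.059 for slc5a6a, −0.024 to 0.17 for slc5a6b, −0.15 to 0.15 for ENSPREG00000010034, −0.32 to 0.27 for ENSPREG00000010019, −0.43 to 1.03 for SLC5A1, −0.88 to 0.69 for slc5a5 and −0.21 to 0.17 for the log2 ratio of ENSPREG00000010019 to ENSPREG00000010034. In 18‰ against the mean of the others, −0.0017 to 0.11 for slc5a6b, −0.52 to 0.93 for SLC5A1, −0.15 to 1.41 for slc5a5 and −0.24 to 0.13 for the log2 ratio of ENSPREG00000010019 to ENSPREG00000010034.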
